A study of Homo sapiens with 4 samples.

Results

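Arsenic trioxide (As2O3) is a thiol-reactive arsenical used as a drug against acute promyelocytic leukaemia, and here it was given to TOV21G, a human cell line of ovarian clear cell carcinoma origin. RNA from cells treated with As2O3 at 1 µM for 48 h was compared with RNA from cells that received no drug, whose time in culture is not given. Poly(A) RNA was sequenced once for each of 4 groups, which also include GSK458, an inhibitor of the kinases PI3K and mTOR, at 0.1 µM for 48 h, and both drugs together at those doses for 48 h. The values are FPKM, fragments scaled by transcript length and by the number of mapped fragments, for 26255 gene symbols. The comparison covers the 12199 genes whose mean over the 4 libraries was at least 1 FPKM and whose symbol is not that of a small RNA. Each gene's difference is log2(FPKM + 1) with As2O3 minus log2(FPKM + 1) in the control, a scale that understates the difference of low genes. A gene said to differ by a value differs by that much on this scale, values in brackets with no unit are the same quantity, and 2-fold means a difference of at least 1. With 1 library a side there is no replicate error, no test and no p-value, and every value below describes these libraries.

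Arsenite binds neighbouring thiols in proteins, and cells are known to answer it along several routes. One sensor is KEAP1, a cysteine-rich adaptor that marks the transcription factor NRF2 for degradation. When its thiols are blocked, NRF2 pairs with a small MAF protein at antioxidant response elements near genes for glutathione, thioredoxin, NADPH and haem metabolism, from which the repressor BACH1 is displaced. Metal-loaded MTF1 drives the metallothioneins from metal response elements. Kinases that sense haem, misfolded protein, amino acid shortage or viral RNA phosphorylate eIF2, which favours translation of ATF4, the activator of the integrated stress response. In promyelocytic leukaemia, arsenic is known for binding the protein PML and leading to its SUMO-dependent degradation.

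The libraries were alike in most respects. FPKM sums ranged from 543975 to 588892. Read from the steps between low values, the depth of the As2O3 library was 96.3% of the control's. It was 108.7% for GSK458 and 85.8% for both drugs, so the libraries with GSK458 were less alike in depth. The absolute depth is unknown. The ferritin genes FTH1 and FTL took 1.16% of the FPKM sum in the control and 3.71% with As2O3. The summed FPKM of HMOX1, TXNRD1 and DDIT3, markers of the response to arsenic, went from 100 in the control to 1918 with As2O3. Markers of the labelled tissue were mixed. The keratins KRT8 and KRT18 were abundant (206 and 214 FPKM and 166 and 239.8 FPKM without and with As2O3), while the epithelial cadherin CDH1 and KRT19 were under 1 FPKM in all 4 libraries. Of 10 fibroblast markers 7, of 10 immune markers 9 and of 10 endothelial markers 9 were under 1 FPKM in every library. The summed FPKM of the fibroblast markers went from 35.1 to 28.1, mostly ACTA2 (30.8 against 21.98 FPKM), that of the immune markers from 1.52 to 4.53, of which the lysosomal protein CD68 made 0.782 and 4.15 FPKM, and that of the endothelial markers from 0.525 to 0.386. The leucocyte gene PTPRC was at 0 in all libraries. In RNA from a whole culture, fewer cells of a kind and less RNA per cell cannot be told apart.

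Most genes differed little. The median difference was 0.01, and 86.3% of genes were within 1.5-fold. Of all genes 51.3% were higher by any amount, the base for the list counts below. A list with a share near that is not set apart by its count. The lists were chosen with earlier results of these data known, so a share far from it is no evidence about a group either. At least 2-fold higher with As2O3 were 237 genes, 1.94% of those compared, and 158 were at least 2-fold lower, which is 1.3%. At the far ends the split was uneven, with 32 genes at least 4-fold higher and 4 at least 4-fold lower. The split of the 2-fold genes, 60.0% of them higher, depended on the scaling. Rescaling the libraries to their mean FPKM sum gave 197 higher and 206 lower genes (48.9% higher) and moved the median of all genes to −0.06, a setting added after these values were seen. Rescaling each library to a sum of 1000000, which also lessens the weight of the pseudocount, gave 229 and 277 genes (45.3% higher). The plot of control against As2O3 levels shows these genes.

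**Figure D1:**
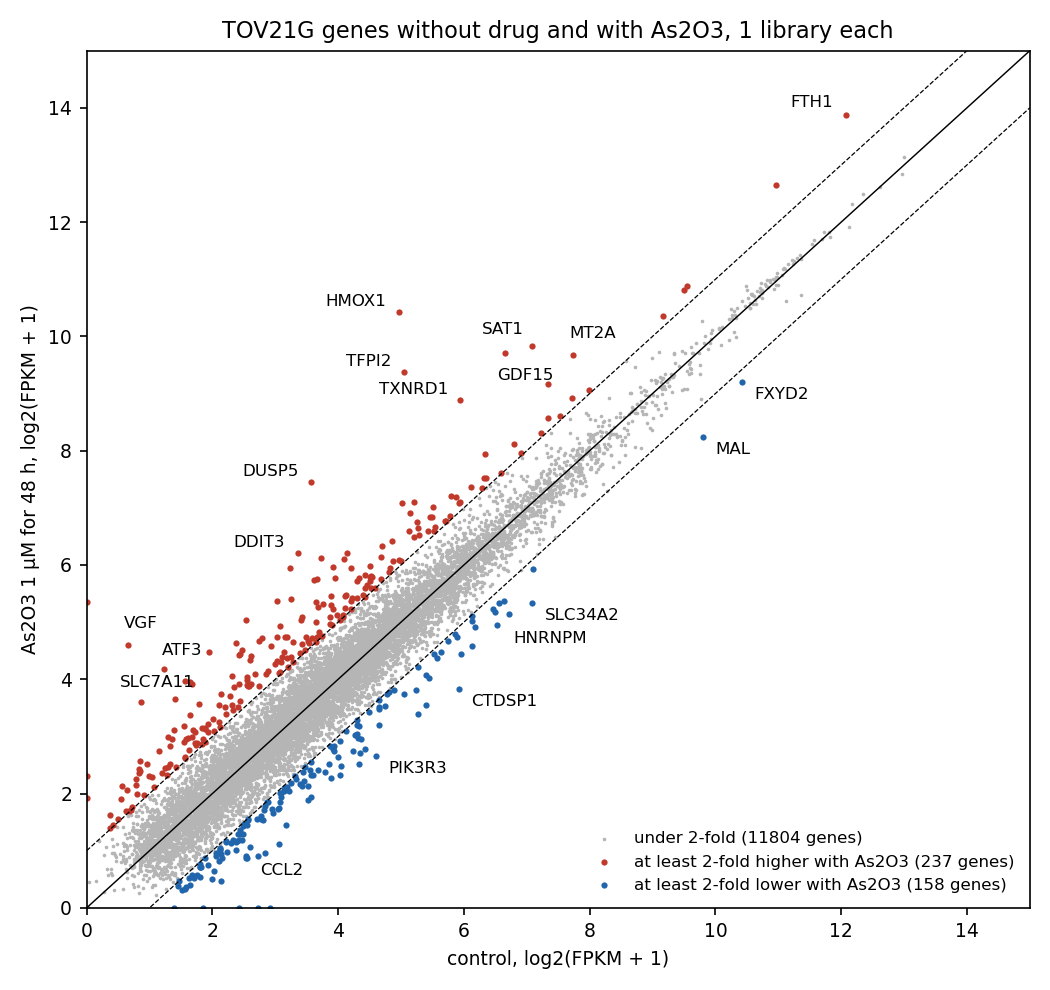
Level of each of 12199 genes in the control library (x axis) and the As2O3 library (y axis), both as log2(FPKM + 1), 1 point a gene; the solid line marks equal levels and the dashed lines 2-fold. The 237 red genes lie above the upper dashed line, led by HMOX1 at 30.3 and 1375 FPKM, and the 158 blue genes lie below the lower one.

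The gene with the largest difference was HMOX1, haem oxygenase, which opens the haem ring and releases iron. It stood at 30.3 FPKM in the control, 1375 FPKM with As2O3, 47.2 FPKM with GSK458 and 1949 FPKM with both drugs, a log2 difference of 5.46 without GSK458. Both libraries with As2O3 were far above both libraries without it. Iron storage genes were higher in the same pairs. The ferritin light chain FTL stood at 1998 FPKM in the control, 6426 FPKM with As2O3, 1892 FPKM with GSK458 and 3704 FPKM with both drugs, and the heavy chain FTH1 at 4300.0, 15008, 8171 and 16546 FPKM, differences of 1.69 and 1.80; both genes have processed pseudogenes, which makes their values uncertain. ABCB6, a porphyrin transporter (13.99 against 30.1 FPKM), was the fourth of the 19 compared genes of haem and iron handling that was at least 2-fold higher. The haem transporter SLC48A1 and ALAS1, the first enzyme of haem synthesis, were just under that line with differences of 0.97 and 0.91. The constitutive haem oxygenase HMOX2 differed by −0.51, the iron exporter SLC40A1 by −0.41 and the transferrin receptor TFRC by 0.27. Over the list 13 of 19 genes were higher and the median was 0.27, beside 0.01 for all genes.

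In glutathione metabolism 5 genes were at least 2-fold higher and 1 was at least 2-fold lower. SLC7A11, the cystine subunit of the cystine-glutamate exchanger, stood at 0.814 FPKM in the control, 11.2 FPKM with As2O3, 0.448 FPKM with GSK458 and 17.6 FPKM with both drugs. The control value is low, so its log2 difference of 2.75 depends on the pseudocount of 1 FPKM. GCLM, the modifier subunit of glutamate-cysteine ligase, stood at 8.56, 41.4, 9.61 and 33.4 FPKM in those libraries, and GCLC, the catalytic subunit, at 7.77, 21.3, 8.68 and 23.7 FPKM. For all 3 genes the libraries with As2O3 were above the libraries without it. CTH, which makes cysteine from cystathionine (12.6 against 38.7 FPKM), and CHAC1, which cleaves glutathione (4.18 against 23.9 FPKM), were also over 2-fold higher. CHAC2, a related enzyme that cleaves glutathione more slowly, went the other way at 4.62 against 1.46 FPKM, a difference of −1.19. The heavy subunit of the exchanger, SLC3A2, and glutathione reductase, GSR, differed by 0.75 and 0.59, whereas glutathione synthetase, GSS, differed by −0.06. Among the transferases GSTP1 differed by −0.02, and GSTM1, GSTM4 and GSTA4 by −0.48, −0.55 and −0.55; the GSTM genes are similar in sequence and therefore uncertain. With 13 of 27 genes higher, the median of the list was −0.00.

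Thioredoxin reductase stood out in the same way among its neighbours in function. TXNRD1, the cytosolic selenoenzyme that keeps thioredoxin reduced, stood at 60.6 FPKM in the control, 470.5 FPKM with As2O3, 154 FPKM with GSK458 and 563 FPKM with both drugs, a difference of 2.94. GSK458 alone was also above the control, and each As2O3 library was above its partner without As2O3. SRXN1, which repairs over-oxidised peroxiredoxins, stood at 14.05, 61.8, 16.1 and 43.02 FPKM, and OSGIN1, a small growth inhibitor induced by oxidative stress, at 2.19, 14.1, 3.88 and 8.68 FPKM. The mitochondrial dismutase SOD2, which NF-kB also drives, reached 575 FPKM from 161. TXNIP, which binds thioredoxin, was higher with As2O3 alone (184 against 388 FPKM) but lower with both drugs than with GSK458 (347 and 237 FPKM). Thioredoxin itself, TXN, and the peroxiredoxin PRDX1 differed by 0.51 and 0.49. The mitochondrial reductase TXNRD2 (−0.01), catalase, CAT (−0.07), PRDX3 (−0.19) and the ER peroxiredoxin PRDX4 (−0.68) were not higher. In this list 16 of 28 members were higher, 5 of them by 2-fold or more, with a median of 0.04 that went to −0.04 with libraries rescaled to an equal sum.

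NADPH, which both reductases consume, is made chiefly by the pentose phosphate pathway. PGD, an oxidative enzyme of the pathway, stood at 149 and 315 FPKM in the control and As2O3 libraries, and the transketolase TKT, already abundant, at 747 and 1879.6 FPKM. With GSK458 and with both drugs PGD stood at 166 and 259.7 FPKM and TKT at 1017 and 2086 FPKM, again higher where As2O3 was present. Malic enzyme ME1 (0.94) and transaldolase TALDO1 (0.66) followed below 2-fold. The folate dehydrogenases ALDH1L2 (3.66 against 9.55 FPKM) and ALDH1L1 (0.885 against 2.94 FPKM) were also among the 5 of 19 genes at least 2-fold higher. Isocitrate dehydrogenase IDH1 (−0.47), the NAD kinase NADK (−0.03) and the lactonase PGLS (−0.24) were not part of this, and the median was 0.13.

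Enzymes that reduce quinones, aldehydes and ketones formed the redox list with the largest share of higher genes, 18 of 22 with a median of 0.51 and 8 at least 2-fold higher. NQO1, a quinone reductase, was at 727 FPKM in the control, 1807 FPKM with As2O3, 801 FPKM with GSK458 and 2089 FPKM with both drugs. UGDH, which makes UDP-glucuronate for conjugation, stood at 36.1, 89.2, 28.2 and 68.6 FPKM, and the epoxide hydrolase EPHX1 at 51.6, 109, 66.1 and 106 FPKM. The aldo-keto reductases AKR1C1 (5.13 against 20.1 FPKM), AKR1C2 (0.481 against 3.39 FPKM) and AKR1C3 (79.2 against 183 FPKM) lie next to each other on chromosome 10 and were all higher, but their near-identical sequences let reads move between them, so their separate values are uncertain. AKR1B1 (0.94) and NQO2 (0.86) were under 2-fold. The retinal dehydrogenase ALDH1A1 was lower (−0.44). TRIM16 and TRIM16L, a pair with shared sequence, differed by 1.12 and 1.27.

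Among the proteins that control NRF2, the small MAF partners differed most. MAFF stood at 7.19 FPKM in the control, 40.4 FPKM with As2O3, 27.1 FPKM with GSK458 and 29.9 FPKM with both drugs, MAFG at 6.67 and 22.9 FPKM and MAFK at 3.97 and 15.6 FPKM without and with As2O3. SQSTM1, the receptor that draws KEAP1 into autophagy, stood at 95.2 and 194 FPKM. The message of NRF2 itself, NFE2L2, differed by less (43.2 against 56.3 FPKM, 0.38), KEAP1 was lower (24.02 against 16.6 FPKM, −0.50) and the repressor BACH1 was at 4.42 and 6.59 FPKM. CUL3 and RBX1, the ligase parts that work with KEAP1, differed by −0.01 and −0.22. MAFF was above the control in all 3 treated libraries, and with both drugs it differed from GSK458 alone by 0.14. Between those libraries MAFK and MAFG differed by 0.10 and 0.59. Over the list 9 of 19 genes were higher with As2O3 alone, 4 at least 2-fold, with a median of −0.01.

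The antioxidant response element was looked for as its core TGACNNNGC on either strand in the 250 bases before the RefSeq start of each gene (GRCh38.p14, a build other than the files' own, used here for sequence only). A promoter was matched for 9809 of the 12199 genes. The core was in 29 of 179 promoters of genes at least 2-fold higher (16.2%), in 8 of 110 of those at least 2-fold lower (7.27%), in 1216 of 9809 of all genes compared (12.4%) and in 10.9% of all 35116 promoters of the table. The core is short and common, and a match describes letters, not a bound site. By list the core was in 2 of 17 promoters of haem and iron genes (11.8%), 6 of 21 of glutathione genes (28.6%) and 2 of 22 of thioredoxin genes (9.09%). It was in 3 of 17 of NADPH genes (17.6%) and 2 of 19 of reductase genes (10.5%). GCLC and OSGIN1 had matched promoters without it, and HMOX1, NQO1 and SLC7A11 were not among the genes with a match. Matches are shown for 4 redox genes described above that hold one, with the core or its reverse complement in capitals. They are written 5′ to 3′ on each gene's own strand with 15 bases to each side. The stretches are chr12:104215665-104215703, plus strand (TXNRD1), chr1:93909441-93909479, minus strand (GCLM), chr1:10398848-10398886, plus strand (PGD) and chr2:219219087-219219125, minus strand (ABCB6).
TXNRD1: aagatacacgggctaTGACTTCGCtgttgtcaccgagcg
GCLM: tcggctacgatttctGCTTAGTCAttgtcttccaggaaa
PGD: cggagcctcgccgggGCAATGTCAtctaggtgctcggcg
ABCB6: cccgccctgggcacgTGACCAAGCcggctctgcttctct
The core lies 99 to 91 bases before the start in TXNRD1, 34 to 26 in GCLM, 201 to 193 in PGD and 152 to 144 in ABCB6. In TXNRD1 and ABCB6 the core reads forward, in GCLM and PGD as its reverse complement.

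Metallothioneins, small cysteine-rich proteins that bind zinc, copper and arsenite, were higher chiefly through 1 gene. MT2A stood at 212 FPKM in the control, 816 FPKM with As2O3, 219.9 FPKM with GSK458 and 473 FPKM with both drugs, a difference of 1.94. MT1E was next at 29.1 and 58.7 FPKM (0.99), and MT1X, MT1A and MT1F differed by 0.47, 0.39 and 0.35. MT1G was under 1 FPKM in all libraries and MT1M was listed at 0 in each. These genes are near copies of each other on chromosome 16, so the separate values are uncertain. MTF1, their activator, stood at 3.66 and 3.84 FPKM. The zinc exporter SLC30A1, which MTF1 also drives, differed by 0.31, and the copper importer SLC31A1 by 0.48. The list had 17 of 22 genes higher and only MT2A at least 2-fold, with a median of 0.21.

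The MT2A promoter is shown because it carries the metal response element core many times. The 250 bases before its RefSeq start (chr16:56608334-56608583, plus strand, GRCh38.p14) hold 7 matches to TGCACNC or TGCGCNC on either strand, in capitals, where overlapping matches run together.
MT2A: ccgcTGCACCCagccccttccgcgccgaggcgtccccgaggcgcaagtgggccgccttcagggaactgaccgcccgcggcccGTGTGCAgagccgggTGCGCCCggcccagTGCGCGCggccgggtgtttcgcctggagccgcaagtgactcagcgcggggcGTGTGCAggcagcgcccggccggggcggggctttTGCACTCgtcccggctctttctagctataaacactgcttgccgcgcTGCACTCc
As many matches or more were found in 11 of 35116 promoters (0.0313%), among them that of CARS2 with 12, whose level differed by −0.60. The MT1X promoter had 4. Single matches are common: TGCACNC was in 9.33% of the promoters of compared genes and in 10.6% of those of genes at least 2-fold higher, and TGCGCNC in 27.2% and 25.1%. The MT2A stretch also holds tgactcagc, 104 to 96 bases before the start, a match to TGACNNNGC that overlaps a match to the AP-1 site TGACTCA.

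Of 14 genes that move or modify arsenic none was 2-fold apart, beside 1.94% higher and 1.3% lower of all genes, so this count does not set them apart. AS3MT, the arsenic methyltransferase, stood at 6.88 FPKM in the control, 8.66 FPKM with As2O3, 6.64 FPKM with GSK458 and 7.17 FPKM with both drugs, and GSTO1, a reductase of methylated arsenic, at 107, 129, 109 and 114 FPKM. The aquaglyceroporin AQP3, through which arsenite can enter, was under 1 FPKM in all libraries. The export pump ABCC3 was highest of the list at 20.2 against 38.9 FPKM (0.91), ABCC1 differed by 0.34, and ABCC4 and ABCC5 were lower (−0.47 and −0.54). The glucose carrier SLC2A1, which also carries arsenicals, differed by 0.68. Of 14 genes 8 were higher, and the median was 0.18.

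PML, the body-forming protein known as an arsenic target in leukaemia, stood at 10.8 FPKM in the control, 19.2 FPKM with As2O3, 16.5 FPKM with GSK458 and 18.9 FPKM with both drugs, 0.77 on the log2 scale, and its partner SP100 differed by 0.51. RARA, the retinoic acid receptor fused to PML in promyelocytic leukaemia, stood at 12.5 FPKM in the control and differed by 1.00. UBA2, a subunit of the SUMO-activating enzyme, differed by 0.85, while the ligase RNF4 differed by 0.15 and the modifiers SUMO2 and SUMO3 by 0.02 and −0.33. Of 28 genes 20 were higher, 1 at least 2-fold (1.94% of all genes were), with a median of 0.08. The values are of messages and say nothing of the proteins.

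**Figure D2:**
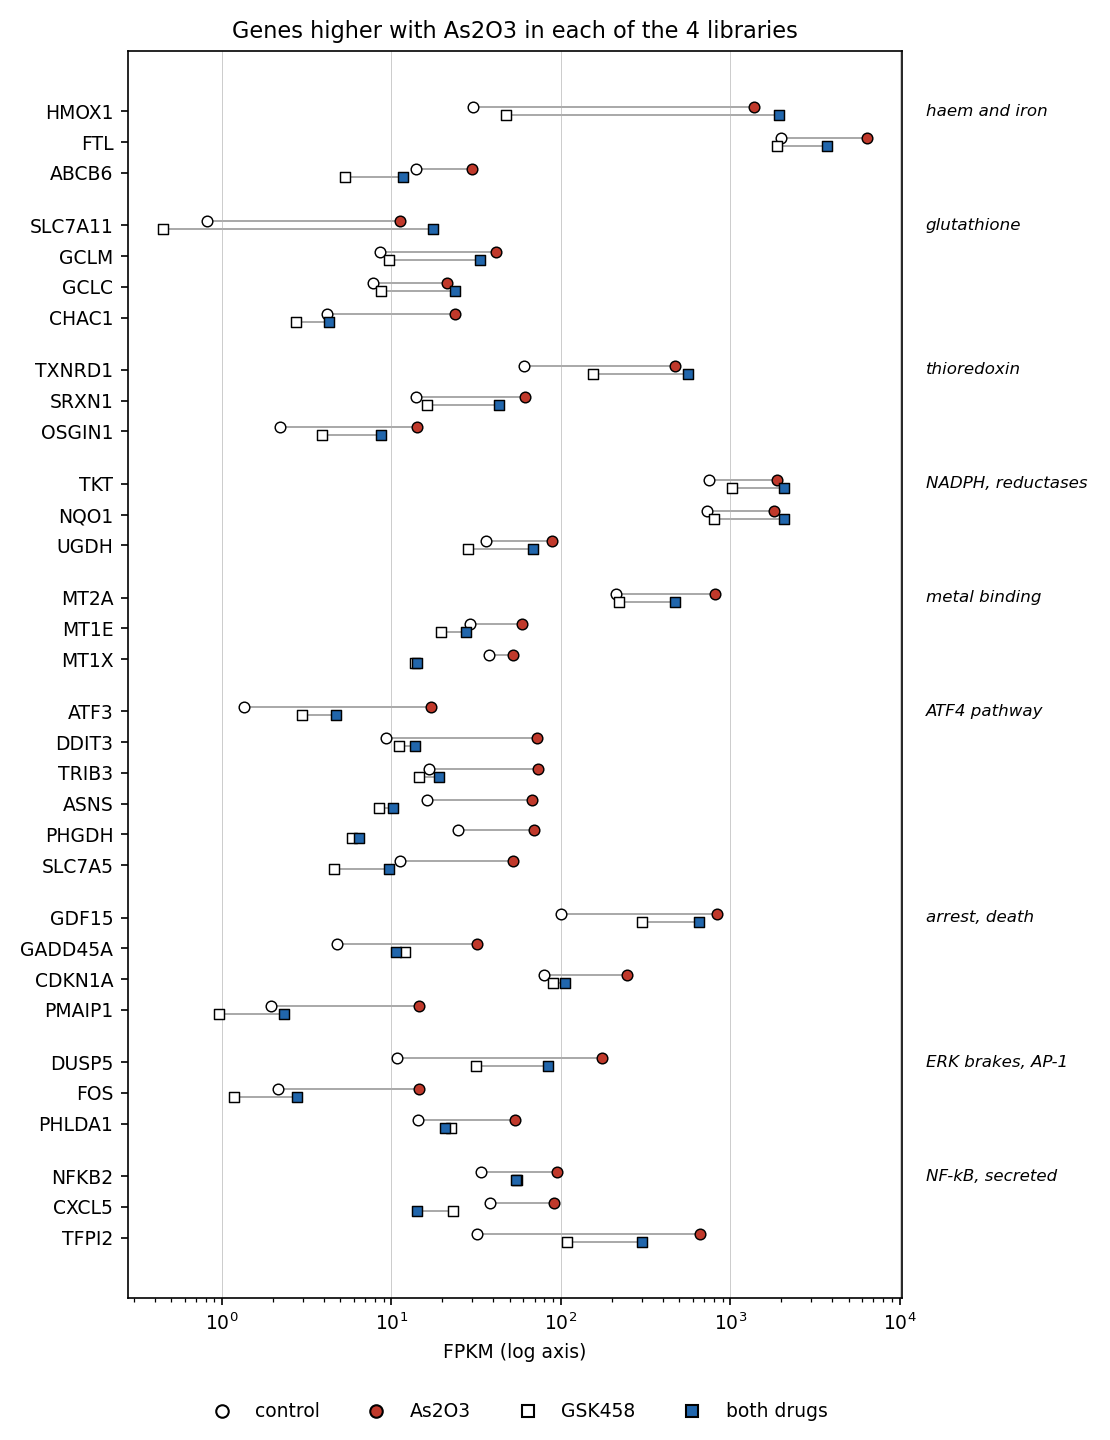
FPKM (log axis) of 32 genes that were higher with As2O3, in the control (open circle), As2O3 (red circle), GSK458 (open square) and combined (blue square) libraries; grey lines join each As2O3 library to its partner without As2O3. Redox genes such as HMOX1, GCLM and NQO1 show long lines in both pairs, while DDIT3, ASNS, PHGDH and GADD45A show a long line between the circles and a short one between the squares.

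Regulators of the integrated stress response were higher in 23 of 31 cases and by 2-fold or more in 11, and their median was 0.54. ATF4 stood at 254 FPKM in the control, 534 FPKM with As2O3, 485 FPKM with GSK458 and 443 FPKM with both drugs, so both single drugs and the combination were above the control. DDIT3, the death-linked factor CHOP, stood at 9.26 FPKM in the control, 72.7 FPKM with As2O3, 11.1 FPKM with GSK458 and 13.7 FPKM with both drugs, a difference of 2.84, and only the As2O3 library was high. ATF3, a repressor induced by stress, stood at 1.35, 17.1, 2.97 and 4.698 FPKM, the pseudokinase TRIB3 at 16.6, 72.8, 14.5 and 19.2 FPKM and the chromatin protein NUPR1 at 1.64, 11.7, 2.78 and 4.43 FPKM. GDF15, a secreted cytokine that signals stress, reached 836 FPKM from 99.9, and with GSK458 and both drugs it stood at 300.5 and 652 FPKM. The secreted proteins STC2 (4.39 against 20.6 FPKM) and INHBE (1.71), the factor CEBPB (1.85) and the translation brake EIF4EBP1 (1.18) were higher too. PPP1R15A, which directs the phosphatase that reverses eIF2 phosphorylation, stood at 15.4 and 31.9 FPKM. The eIF2 kinases themselves differed by 0.18 for the haem sensor EIF2AK1, 0.26 for EIF2AK2, 0.54 for the ER kinase EIF2AK3 and 0.30 for EIF2AK4. ATF5, SESN2 and DDIT4, which ATF4 is also known to drive, differed by −0.05, −0.18 and 0.06, and the mitochondrial protease OMA1 by −0.51.

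Amino acid supply showed a pattern gene by gene. Asparagine synthetase, ASNS, stood at 16.1 FPKM in the control, 67.8 FPKM with As2O3, 8.41 FPKM with GSK458 and 10.2 FPKM with both drugs. The mitochondrial folate enzyme MTHFD2 stood at 34.4, 119.8, 20.3 and 23.1 FPKM and PHGDH, the first enzyme of serine synthesis, at 24.7, 69.4, 5.87 and 6.47 FPKM. In these 3 genes the As2O3 library was highest and the combination lay close to GSK458 alone, below the control. Later enzymes of the serine branch, PSAT1, PSPH and SHMT2, differed by 0.56, 0.23 and 0.41. Proline synthesis was split: PYCR1 differed by 0.70, ALDH18A1 by 0.19 and PYCRL by −1.07. Glutamine synthetase, GLUL, differed by −0.59. Of the carriers, SLC7A5, which imports large neutral amino acids, stood at 11.2 and 52.5 FPKM and the taurine carrier SLC6A6 at 17.4 and 60.9 FPKM; 11 of 19 transporters were higher and 3 at least 2-fold, beside 14 and 3 of 23 serine, asparagine, proline and one-carbon enzymes.

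Enzymes that charge transfer RNA differed by compartment. Of 23 genes of cytosolic synthetases and their scaffold 17 were higher, with a median of 0.28, and CARS (16.3 against 42.7 FPKM), YARS (28.3 against 66.3 FPKM) and AARS (45.5 against 101 FPKM) were over 2-fold. Next were SARS (0.85), GARS (0.81) and MARS (0.71). Of the 17 mitochondrial synthetases 6 were higher, none 2-fold, with a median of −0.06 and CARS2 (−0.60) lowest. The genes for cysteine and alanine make this plainest: CARS differed by 1.34 and CARS2 by −0.60, AARS by 1.13 and AARS2 by −0.22.

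The ATF4-type element was searched as TGATGNAA on either strand in the same promoter stretches. It was in 6 of 179 promoters of genes at least 2-fold higher (3.35%), in 1 of 110 of those at least 2-fold lower (0.909%), in 116 of 9809 of all genes compared (1.18%) and in 3.14% of all 35116 promoters. The 6 genes were CHAC1, ASNS, ATF3, AARS, HERPUD1 and PLK3. The first 5 are shown because they are named here as stress response genes; capitals mark the element or its reverse complement, and the stretches are chr15:40953247-40953284, plus strand (CHAC1), chr7:97872454-97872491, minus strand (ASNS), chr1:212565201-212565238, plus strand (ATF3), chr16:70289671-70289708, minus strand (AARS) and chr16:56931951-56931988, plus strand (HERPUD1), all RefSeq on GRCh38.p14.
CHAC1: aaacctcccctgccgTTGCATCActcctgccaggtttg
ASNS: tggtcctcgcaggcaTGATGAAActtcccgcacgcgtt
ATF3: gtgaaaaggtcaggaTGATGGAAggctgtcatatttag
AARS: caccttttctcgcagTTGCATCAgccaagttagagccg
HERPUD1: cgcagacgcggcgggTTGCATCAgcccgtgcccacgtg
CHAC1, AARS and HERPUD1 share the letters TTGCATCA, while ASNS and ATF3 have TGATGAAA and TGATGGAA. That other genes have no match says only that these letters are not in this window.

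The other folding and disposal systems held fewer 2-fold genes. In the ER unfolded protein response the sensor ERN1 (3.06 against 7.497 FPKM) and HERPUD1, a factor of ER-associated degradation (31.1 against 66.2 FPKM), were over 2-fold higher. The chaperones were not: HSPA5 differed by −0.13, HSP90B1 by −0.14, PDIA4 by −0.46 and calreticulin, CALR (872 against 480.3 FPKM), by −0.86. The list had 11 of 32 genes higher and a median of −0.13. Of cytosolic heat shock genes 27 of 35 were higher with a median of 0.24, and the small heat shock protein CRYAB (24.9 against 79.6 FPKM) and the co-chaperone DNAJB4 (5.12 against 14.05 FPKM) passed 2-fold. HSF1, the heat shock factor, differed by 0.34, and its known targets HSPH1, HSPA1B, DNAJB1 and HSPB1 by 0.84, 0.32, 0.29 and −0.01. Proteasome subunits were flat (17 of 41 higher, median −0.03), with PSMB10 (−0.73) lowest. Autophagy genes were higher in 32 of 40 cases with a median of 0.34. The ATG8-family genes GABARAPL1 (118 against 248 FPKM) and MAP1LC3B (37.01 against 74.1 FPKM) led them with SQSTM1, followed by RB1CC1 (0.90) and ULK1 (0.70). MAP1LC3C, an ATG8-family gene outside the list, was lower in both pairs (3.41 against 0.377 FPKM in the first).

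Growth arrest genes were higher in most cases. CDKN1A, the cyclin-dependent kinase inhibitor p21, stood at 79.7 FPKM in the control, 244 FPKM with As2O3, 90.4 FPKM with GSK458 and 105 FPKM with both drugs. GADD45A, a stress sensor that slows the cell cycle, stood at 4.78, 31.99, 12.01 and 10.6 FPKM, and CDKN1C, an inhibitor of the p21 family, at 3.87, 12.1, 8.26 and 8.25 FPKM. As2O3 alone was the highest library for all 3 genes. CDKN2D (1.26), GADD45B (1.31), BTG1 (1.23), BTG3 (1.19) and PLK3 (1.15) also passed 2-fold. The ubiquitin ligase MDM2 stood at 13.4 and 19.8 FPKM. FDXR, ZMAT3 and XPC, genes of the DNA damage response, differed by 0.02, −0.19 and −0.17. The list had 28 of 36 genes higher, beside 51.3% of all genes, 9 of them at least 2-fold, and a median of 0.45.

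In the BCL2 family, PMAIP1, the BH3-only protein NOXA, was at 1.95 FPKM in the control, 14.6 FPKM with As2O3, 0.953 FPKM with GSK458 and 2.32 FPKM with both drugs. BBC3 (PUMA) stood at 20.1 and 39.8 FPKM, BCL2L11 (BIM) differed by 0.84, and the survival genes MCL1, BCL2L1 and BCL2 by 0.33, 0.48 and −0.20. Only PMAIP1 of 17 genes was 2-fold apart (12 higher, median 0.33), beside 1.94% higher and 1.3% lower of all genes. The death receptors TNFRSF10B (0.90), TNFRSF21 (0.94) and FAS (0.47) were higher under 2-fold, and the ligand TNFSF9 stood at 10.6 and 23.7 FPKM. The caspase CASP6 differed by −0.51 and the necroptosis genes RIPK3 and MLKL by −0.35 and −0.48.

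AP-1 and other immediate early factors had the highest median of the 50 lists plotted, 0.87, with 30 of 33 genes higher and 13 at least 2-fold. NR4A1, an orphan nuclear receptor, stood at 8.38 FPKM in the control, 60.7 FPKM with As2O3, 10.5 FPKM with GSK458 and 21.8 FPKM with both drugs, and FOS at 2.13, 14.5, 1.18 and 2.78 FPKM. FOSL1 (4.57 against 21.7 FPKM), EGR1 (3.38 against 12.5 FPKM) and ZFP36, a factor that destabilises AU-rich messages (4.08 against 13.5 FPKM), were over 2-fold. JUN, JUNB and JUND differed by 0.70, 0.99 and 0.95. Of the 3 lower genes only SGK1, a kinase gene that serum and glucocorticoids induce, was at least 2-fold lower, at 20.5 against 5.86 FPKM (−1.65). The AP-1 site TGACTCA was in 3.91% of the promoter stretches of the 2-fold higher genes and in 2.73% of those of the lower genes. It was in 2.41% of those of all genes compared and in 4.20% of all promoters. Of the 25 matched promoters of this list, 0 held it.

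Genes that ERK signalling induces to limit itself followed. DUSP5, a nuclear phosphatase of ERK, stood at 10.8 FPKM in the control, 174 FPKM with As2O3, 31.5 FPKM with GSK458 and 83.6 FPKM with both drugs, a difference of 3.88. DUSP1 stood at 9.75 and 32.97 FPKM, while DUSP6, the cytoplasmic phosphatase of ERK, differed by 0.14 and DUSP4 by 0.81. PHLDA1 and PHLDA2 stood at 14.4 and 53.7 FPKM and 5.91 and 25.5 FPKM, the feedback inhibitors SPRY4 and SPRY2 differed by 0.87 and 0.58, and the ETS factors ETV4 and ETV5 by 0.77 and 1.07. Of 28 genes 23 were higher, 6 at least 2-fold, with a median of 0.45. Upstream, the ligand EREG stood at 11.8 and 37.5 FPKM, but only 5 of 14 genes of EGF ligands, receptors and shedding were higher and ERBB4, ERBB2 and ERBB3 differed by −0.83, −0.57 and −0.36. Among receptor tyrosine kinases AXL was at 14.9 against 33.96 FPKM and FGFR2 at 46.8 against 19.7 FPKM, with 7 of 16 higher.

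Among the NF-kB subunits the messages of NFKB2 and RELB differed most. NFKB2 stood at 33.9 FPKM in the control, 95.5 FPKM with As2O3, 55.3 FPKM with GSK458 and 54.1 FPKM with both drugs. RELB stood at 11.5, 24.1, 25.6 and 24.9 FPKM in those libraries. NFKB1, RELA and REL differed by 0.27, 0.57 and −0.10, and the feedback inhibitors NFKBIA and TNFAIP3 by 0.09 and 0.65. ICAM1, an adhesion molecule, stood at 20.03 and 43.6 FPKM. Over the list 23 of 30 genes were higher, 4 at least 2-fold, median 0.27. Of the cytokines, IL32 (37.8 against 99.2 FPKM), LIF (4.905 against 13.7 FPKM), CXCL5 (37.99 against 91.6 FPKM), TNF (16.2 against 37.04 FPKM), CCL20 (2.59 against 6.77 FPKM), VEGFA (27.1 against 57.6 FPKM) and CXCL8 (2.68 against 6.505 FPKM) passed 2-fold. The neutrophil chemokines CXCL1, CXCL2 and CXCL3, neighbours of CXCL8, differed by 0.31, 0.41 and 0.34. CCL2, a monocyte chemokine, was lower in both pairs, at 4.88, 0.822, 5.82 and 1.38 FPKM in the order control, As2O3, GSK458, both.

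The PI3K and mTOR list was split, with 18 of 36 genes higher and a median of −0.00. GATSL3, a sensor that restrains mTORC1 in arginine shortage (11.6 against 53.03 FPKM), was higher; it lies next to TBC1D10A and near LIF on chromosome 22, which were also over 2-fold higher, so overlap makes its value uncertain. PIK3R3, a regulatory subunit of PI3K, stood at 23.2 FPKM in the control, 5.28 FPKM with As2O3, 5.33 FPKM with GSK458 and 3.83 FPKM with both drugs. The kinases SGK1 and SGK2 (19.5 against 6.75 FPKM), which act beside AKT, and DDIT4L, an mTORC1 inhibitor (7.24 against 2.302 FPKM), were over 2-fold lower. PIK3R1 and PIK3R2 differed by −0.53 and −0.67. For PIK3R3, SGK1 and SGK2, GSK458 alone was about as low as As2O3 or lower. The kinase genes MTOR and AKT1 differed by −0.15 and 0.19.

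Metabolic lists held single genes that stood out. In the MYC and MLX network the MYC antagonists MXI1 (16.5 against 43.5 FPKM) and MXD1 (2.18 against 6.95 FPKM), the arrestin ARRDC3 (19.1 against 53.5 FPKM) and MYC (45.2 against 96.2 FPKM) joined TXNIP above 2-fold, for a median of 0.51 over 16 genes. Among glycolysis and hypoxia genes the stress-responsive NDRG1 (35.8 against 137 FPKM), the glucose carrier SLC2A3 (7.95 against 25.8 FPKM), the oxygen sensor factor EPAS1 (54.2 against 146 FPKM), the vasodilator ADM (3.004 against 8.87 FPKM) and PFKFB3 (41.8 against 95.3 FPKM) were over 2-fold with VEGFA. In that list 27 of 38 genes were higher, with a median of 0.23. Its glycolytic enzymes went both ways, among them PFKP (0.54), HK2 (0.51), ALDOA (0.23), PGK1 (−0.02), ENO1 (−0.21), LDHA (−0.46) and PGAM1 (−0.63). INSIG1, which holds the sterol sensor in the ER, stood at 8.09 and 25.6 FPKM, while the ubiquitin ligase MYLIP differed by −1.01. PLIN2, a coat protein of lipid droplets, stood at 24.8 and 53.3 FPKM, and SREBF1 and LPIN2 differed by −0.61 and −0.60. Nuclear genes of oxidative phosphorylation were higher in 9 of 42 cases, with a median of −0.15 and none 2-fold apart.

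Cell cycle lists went different ways by phase. Mitotic genes were higher in 42 of 47 cases with a median of 0.28, none of them 2-fold. The phosphatase CDC25C stood at 5.49 and 11.8 FPKM and the ubiquitin-conjugating enzyme UBE2S at 107 and 190.5 FPKM, while MKI67, CCNB1 and CDK1 differed by 0.08, 0.08 and 0.07. Replication and nucleotide genes were higher in 18 of 47 cases with a median of −0.11. MCM7, a subunit of the replicative helicase, stood at 71.3 FPKM in the control, 29.1 FPKM with As2O3, 34.4 FPKM with GSK458 and 19.6 FPKM with both drugs. The other helicase subunits ranged from a difference of −0.55 for MCM6 to 0.37 for MCM5, PCNA differed by −0.62 and the reductase subunit RRM2 by −0.86. CDT1, which loads the helicase in G1, was at 15.96 and 33.9 FPKM and ORC1 differed by 0.65. Among G1 genes CCND3 (0.61) and CDK6 (0.58) were highest and the E2F partner TFDP1 (−0.58) lowest.

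Replication-dependent histone genes were the list with the lowest median. Of the 58 listed genes only 9 reached a mean of 1 FPKM, 7 of them at least 2-fold lower, with a median of −1.10. HIST1H2AC stood at 10.9 FPKM in the control, 2.82 FPKM with As2O3, 10.95 FPKM with GSK458 and 6.09 FPKM with both drugs, HIST2H2AC at 6.12, 0.952, 1.41 and 1.07 FPKM and the linker histone HIST1H1C at 24.1, 11.4, 22.3 and 14.4 FPKM. These messages mostly lack a poly(A) tail and belong to families of near copies, so their values are uncertain. The variant H2AFZ, whose message has a tail, stood at 329 and 209 FPKM.

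Several lineage genes of clear cell carcinoma and of renal-type epithelium were lower. ANXA4, a calcium-binding annexin that marks clear cell carcinoma, stood at 309.6 FPKM in the control, 156 FPKM with As2O3, 297 FPKM with GSK458 and 287 FPKM with both drugs, a difference of −0.99. As2O3 alone was its low library, and the combination stayed near the control. FXYD2, a modulator of the sodium pump, stood at 1367 FPKM in the control, 589 FPKM with As2O3, 698 FPKM with GSK458 and 635 FPKM with both drugs, and the raft protein MAL at 891, 301, 297 and 246 FPKM. Here all 3 treated libraries were below the control. The phosphate carrier SLC34A2 (135 against 39.2 FPKM), the ciliary protein CYS1 (41.4 against 10.6 FPKM), the kidney cadherin CDH16 (10.9 against 4.01 FPKM), the chloride exchanger CLCN5 (14.9 against 5.22 FPKM), the channel subunit KCNE3 (6.02 against 1.900 FPKM), the defensin DEFB1 (89.2 against 35.2 FPKM) and the annexin ANXA13 (5.62 against 0.884 FPKM) were also over 2-fold lower. CLDN16, KIF12, TMEM27 and PKD2 were lower by less (−0.95, −0.80, −0.77 and −0.53). PAX8, a lineage factor of the female tract and kidney, went the other way (96.8 against 149 FPKM, 0.62), and PAX2 differed by −0.23. In a list of 29 renal epithelial genes, drawn up after these values were seen, 17 of 19 compared genes were lower, 8 at least 2-fold, with a median of −0.95. Because the list was drawn up that way, its counts and median are no evidence about renal epithelial genes as a group.

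Not every gene known from this tumour type was lower. TFPI2, a secreted protease inhibitor, stood at 32.04 FPKM in the control, 664 FPKM with As2O3, 109 FPKM with GSK458 and 301 FPKM with both drugs, a difference of 4.33, the next after HMOX1 among genes detected in both libraries. SPP1, osteopontin, stood at 571, 1308, 761 and 1947 FPKM. The fibrinogen chains FGB (87.1 against 36.6 FPKM) and FGA (21.5 against 9.71 FPKM), neighbours on chromosome 4, were over 2-fold lower, and complement factor I, CFI, differed by −0.97. Of 18 clear cell carcinoma and lineage markers 6 were higher and 12 lower, 2 and 5 of them at least 2-fold.

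**Figure D3:**
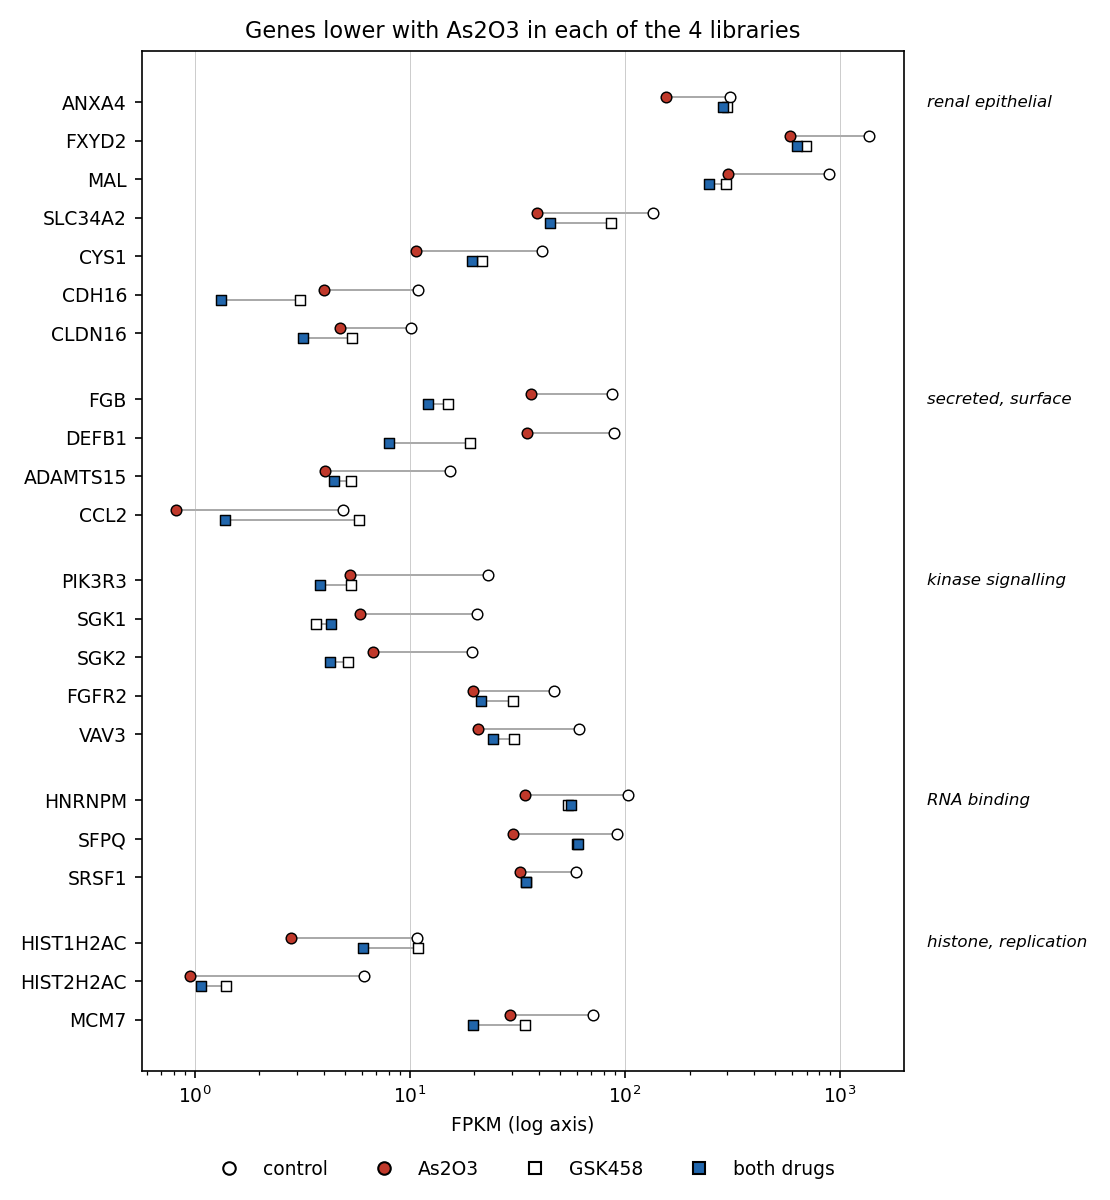
FPKM (log axis) of 22 genes that were lower with As2O3, with symbols as for the higher genes: control (open circle), As2O3 (red circle), GSK458 (open square) and both drugs (blue square). In the top group ANXA4 has all other libraries to the right of As2O3, whereas FXYD2 and MAL have all 3 treated libraries to the left of the control; in the RNA-binding group the squares lie together.

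Splicing factors and other RNA-binding proteins were picked out from the lowest genes. HNRNPM, a regulator of splicing, stood at 104 FPKM in the control, 34.2 FPKM with As2O3, 54.5 FPKM with GSK458 and 56.03 FPKM with both drugs, and SFPQ, a paraspeckle protein, at 91.5, 30.1, 60.1 and 60.7 FPKM. In both the control was highest and As2O3 lowest, and GSK458 and the combination were nearly equal. The SR proteins SRSF1, SRSF3 and SRSF6 and their relatives TRA2A and TRA2B differed by −0.85, −0.78, −0.85, −0.89 and −0.83, whereas SRSF4 and SRSF11 differed by 0.44 and 0.37 and the SR kinases CLK3 and CLK1 by 0.86 and 0.65. Of 69 such genes, a list drawn up after these values were seen, 50 were lower and 3 at least 2-fold, with a median of −0.15. Transcripts of several of these genes are known to hold exons that send the message to decay, which a value per gene does not show.

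Adhesion and matrix genes were mixed. The integrin ITGA3 (44.2 against 114 FPKM), the urokinase PLAU (161 against 379 FPKM) and its receptor PLAUR (1.93 against 6.51 FPKM) and the inhibitor SERPINE2 (17.4 against 40.2 FPKM) were over 2-fold higher, and the metalloprotease ADAMTS15 (15.4 against 4.04 FPKM) over 2-fold lower. PLAU was lower with both drugs (134 FPKM) than with GSK458 (218 FPKM). Collagens were lower in most cases, among them COL12A1 (−0.73), COL8A1 (−0.59) and COL18A1 (−0.46), while COL6A1 differed by 0.61. TUBA4A stood at 20.4 and 55.7 FPKM, a tubulin whose relatives make it uncertain. In the interferon list IRF7 was at 2.23 against 7.61 FPKM and IFIT1, IFIT2 and IFIT3 differed by −0.98, −0.65 and −0.59, while HLA-C and HLA-E differed by 0.55 and 0.56.

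Other genes at the ends of the ranking are given by themselves. VGF, a precursor of secreted neuropeptides, stood at 0.581 FPKM in the control, 23.3 FPKM with As2O3, 0.619 FPKM with GSK458 and 1.67 FPKM with both drugs. UBALD2 stood at 12.2 and 68.6 FPKM and the kinase SIK1, a brake of cAMP signalling, at 31.5 and 135 FPKM. Among the lowest, CTDSP1, a phosphatase of RNA polymerase II, stood at 59.7, 13.1, 78.1 and 33.5 FPKM and was lower in both pairs; it lies next to the antisense gene CATIP-AS1, also over 2-fold lower, which makes it uncertain. The steroid sulphatase STS (7.31 against 1.16 FPKM), the smoothelin-like SMTNL2 (37.5 against 9.55 FPKM), TMEM37, a calcium channel subunit (19.2 against 4.72 FPKM), RGS2, a regulator of G proteins (19.3 against 5.53 FPKM), NCOA5, a coactivator (13.7 against 3.82 FPKM), TCTA (10.5 against 2.69 FPKM) and the exchange factor VAV3 (61.3 against 20.8 FPKM) were lower. C1orf53 stood at 5.08 and 1.09 FPKM. Noncoding genes at these ends were BRE-AS1 (2.86 against 21.2 FPKM), LINC00473, a target of cAMP signalling (15.5 against 4.59 FPKM), SNHG9 (69.2 against 22.9 FPKM) and ZBED5-AS1 (7.97 against 1.72 FPKM); antisense genes are uncertain, since the strand setting of the counting is not given. SNHG25 had a listed value of 0 in the control, while the treated libraries held 39.7 FPKM (As2O3), 52.2 FPKM (GSK458) and 44.6 FPKM (both drugs). MIR503HG (6.52 FPKM without drug) and CDC37L1-AS1 (5.61 FPKM) were listed at 0 with As2O3. No fold is given for these 3.

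Ribosomal protein genes showed how tight the values can be: 49 of 58 were higher, between −0.12 (RPL41) and 0.27 (RPL28), with a median of 0.08 that went to −0.01 with libraries rescaled to an equal sum. Ribosome biogenesis genes had a median of −0.04 and ran from −0.83 on the log2 scale for UBTF, a factor of RNA polymerase I, to 0.94 for the endonuclease NOB1. The plot of all gene groups sets these lists beside each other.

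**Figure D4:**
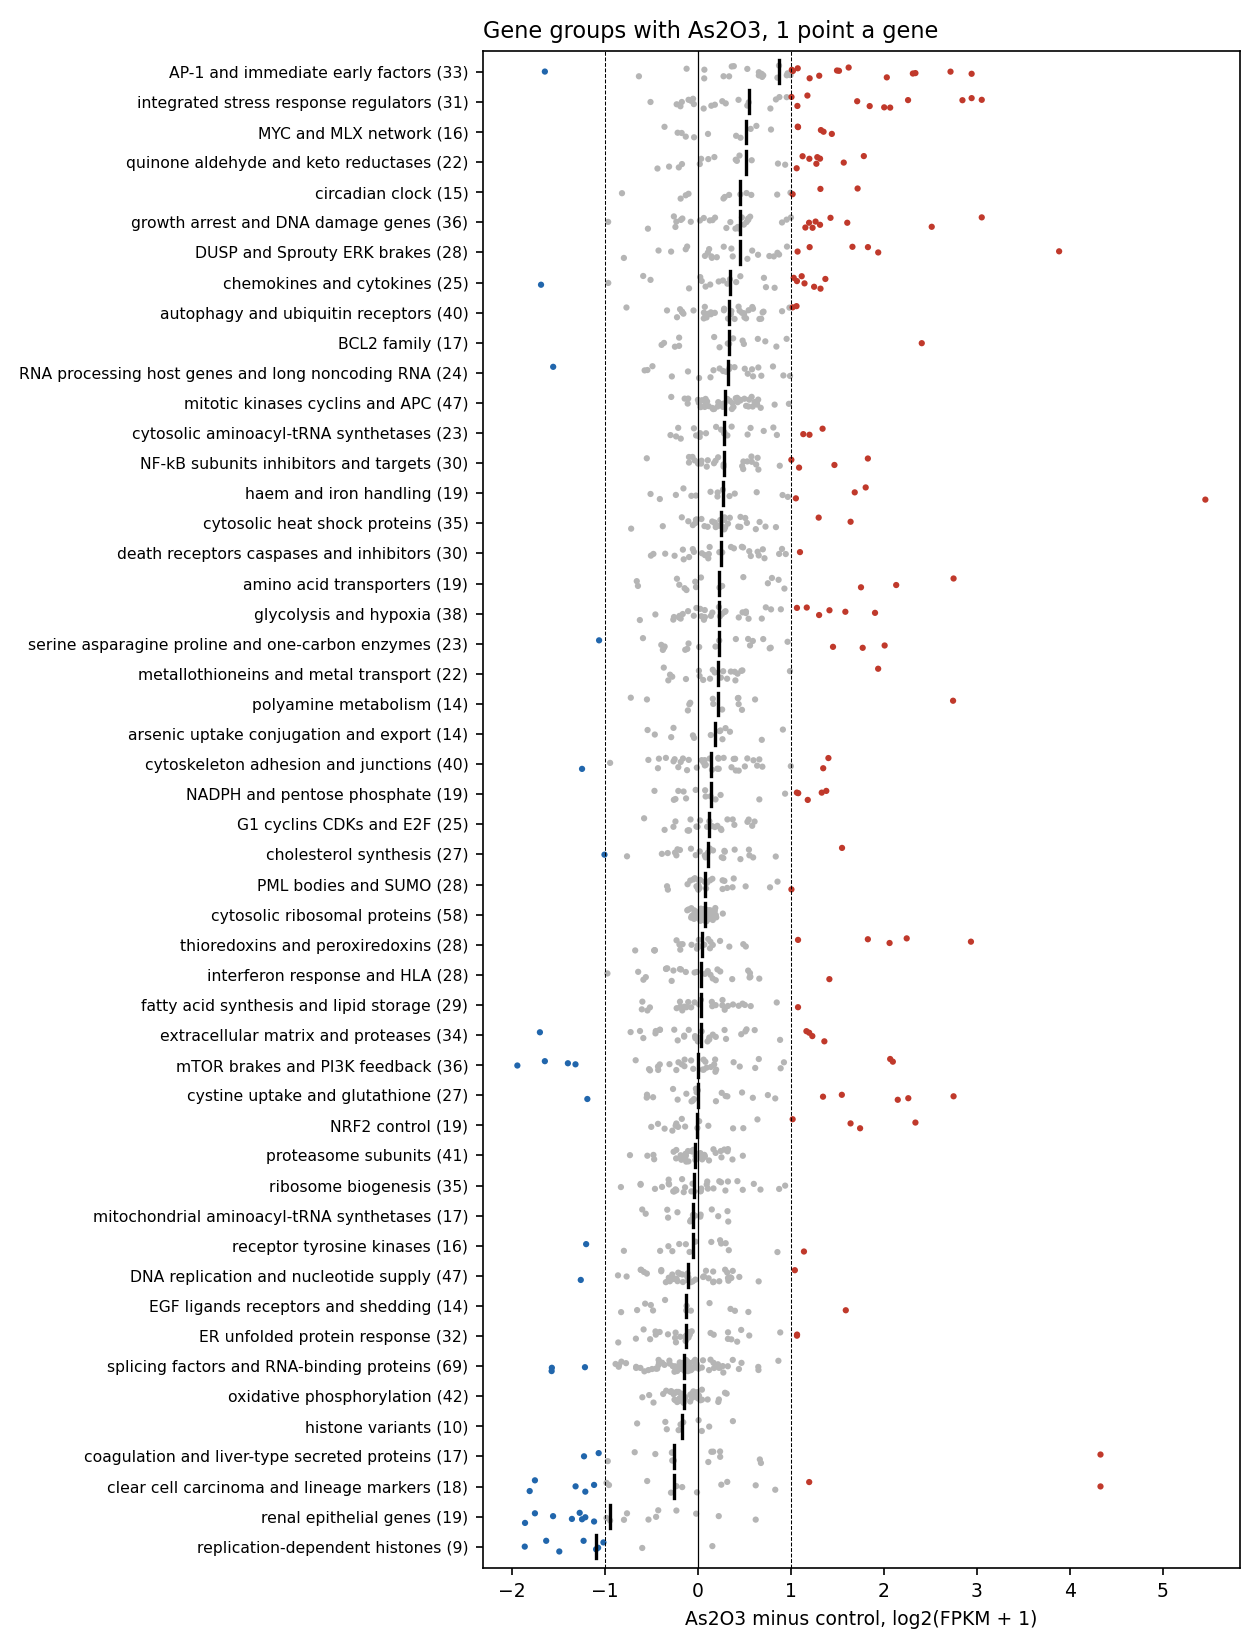
Difference of each compared gene (As2O3 minus control, log2(FPKM + 1)) by gene group, with the number of compared genes in brackets and a black bar at the group's median; red points are at least 2-fold higher and blue points at least 2-fold lower. Groups are sorted by median, from immediate early factors at 0.87 down to replication-dependent histones at −1.10; several groups near 0, such as glutathione genes, hold single genes far to the right.

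The As2O3 difference can be read again from libraries that share none with the first pair, the combination against GSK458 alone. In depth this pair stood at 85.8% (combination) and 108.7% (GSK458) of the control's. There 60 genes (0.492%) were at least 2-fold higher and 22 (0.18%) at least 2-fold lower. Of the 237 genes higher without GSK458, 182 (76.8%) were higher in this pair and 28 at least 2-fold. Of the 158 lower genes, 123 (77.8%) were lower and 7 at least 2-fold. For comparison, 50.5% of all genes were higher in this pair. The differences of these genes were smaller, with medians of 0.26 and −0.24 for the higher and lower genes, beside 1.31 and −1.21 in the first pair, where those genes were chosen.

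The second pair is described here by gene function. Of 27 redox genes at least 2-fold higher without GSK458, drawn from the 5 lists of haem, glutathione, thioredoxin, NADPH and reductase genes, 25 were higher and 17 at least 2-fold in the second pair, with a median of 1.05 (1.38 in the first pair). HMOX1 (5.46 and 5.34), GCLC (1.34 and 1.35) and UGDH (1.28 and 1.26) had nearly equal differences, and SLC7A11 a larger one with GSK458 (3.68). The redox genes that were not higher there were TXNIP (−0.55) and ALDH1L2 (−0.16). Of 20 genes of the integrated stress response and amino acid supply 19 were higher but 3 at least 2-fold, with a median of 0.27 (1.81 in the first pair); DDIT3 (0.28), ASNS (0.25) and PHGDH (0.12) were among those under 2-fold, and GDF15 (1.12), SLC7A11 and CEBPB (1.29) passed.

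Immediate early and ERK-linked genes came to 13 of 18 higher and only DUSP5 (1.38) at least 2-fold, with a median of 0.27. Arrest and death genes came to 8 of 11 higher with a median of 0.19, GDF15 alone at least 2-fold. NF-kB genes and cytokines came to 4 of 11 with a median of −0.04, none 2-fold. Among the latter CXCL5 (−0.67) and TNF (−0.57) were lower. The 8 renal epithelial genes that were at least 2-fold lower without GSK458 had a median of −0.16, 7 of them lower and none 2-fold, with SLC34A2 (−0.92) and CDH16 (−0.81) the farthest. HNRNPM and SFPQ differed by 0.04 and 0.01. Other lists had the larger difference in the second pair. Mitotic genes were higher in 46 of 47 cases, 7 at least 2-fold, with a median of 0.64 (0.28 in the first pair). MKI67, a marker of cycling cells, stood at 31.7 FPKM in the control, 33.6 FPKM with As2O3, 2.08 FPKM with GSK458 and 7.21 FPKM with both drugs, so the second pair starts from a far lower level. Ribosomal protein genes were higher in 1 of 58 cases with a median of −0.22 (0.08 in the first pair). The difference between the pairs was not tested. Some genes belong to more than 1 of these groups.

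**Figure D5:**
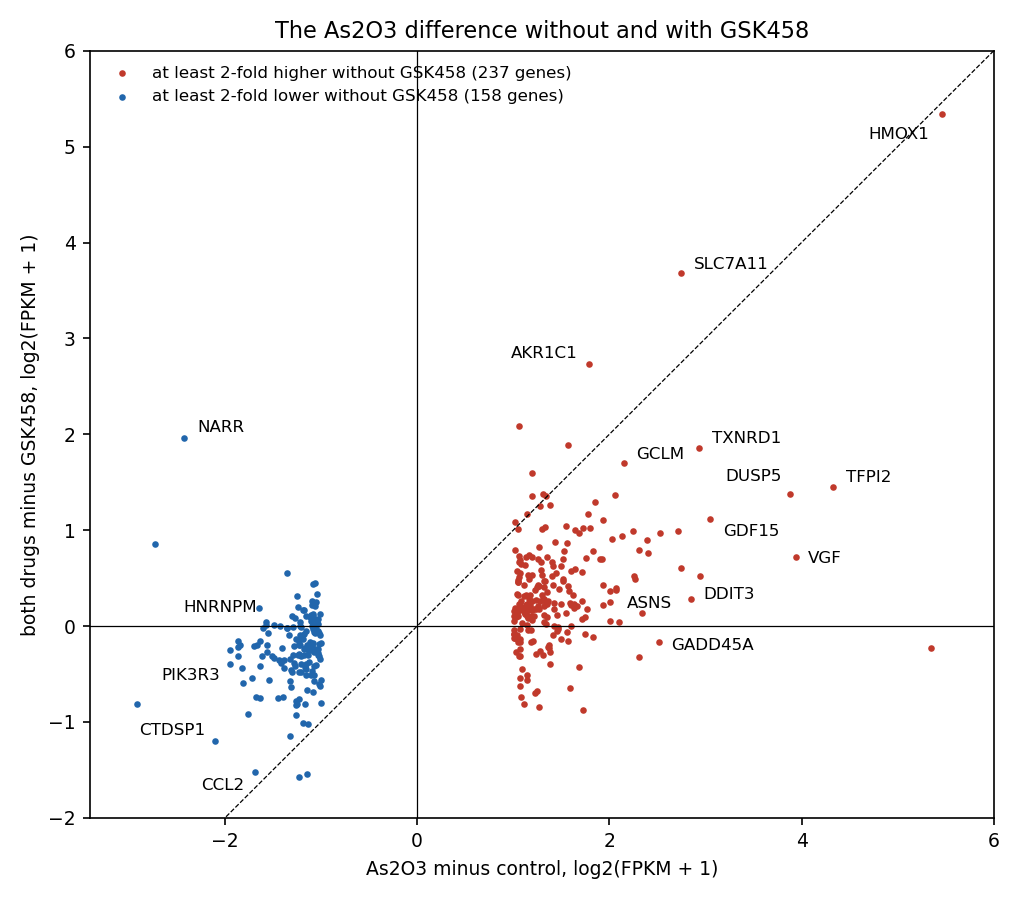
Difference with As2O3 in the absence of GSK458 (x axis, As2O3 minus control) and in its presence (y axis, both drugs minus GSK458), both as log2(FPKM + 1), for the 237 genes at least 2-fold higher (red) and the 158 at least 2-fold lower (blue) on the x axis; the dashed line marks equal differences. HMOX1, SLC7A11 and AKR1C1 lie near or above the line, most other genes lie between the line and 0, and the gap around x = 0 is the 2-fold threshold that chose the genes.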

How the data were processed

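Each of the 4 libraries is 1 RNA sample of TOV21G cells, extracted with a Qiagen RNeasy kit and prepared as stranded poly(A) RNA, per the labels' protocols. The deposited values are FPKM per gene symbol, and the submitters' processing notes list Cuffdiff 2.2.1, TopHat2 2.1.1, SAMtools 0.1.18, Bowtie2 2.2.8 and the build hg19; which tool did what, the annotation and the strand setting are not stated there. Levels were compared as log2(FPKM + 1) for genes averaging 1 FPKM or more across the 4 libraries, small RNA symbols left out, in Python 3.11.15 with pandas 2.3.3. A count model was not used, since FPKM are not counts. The counting of calls was tested on simulated data.

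Genes named by rule are the 25 highest and 25 lowest with at least 5 FPKM in the control or As2O3 library, up to 4 members each way at least 2-fold apart from each list (where none is, the 2 largest), and a set of arsenic response genes named whatever their value. The members and the 49 lists were chosen with earlier results of these data known, and 4 lists (RNA-binding, renal epithelial, polyamine, clock) after the values were seen. Other list members were named after their values were seen and support nothing. Of the lists, 50 with at least 5 compared genes are reported. Promoters are RefSeq sequences of GRCh38.p14, matched by symbol. Alternatives were other pseudocounts, filters, scalings and thresholds, and small RNAs kept. Results for some genes are not reported here.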

Additional observations from a re-analysis of the deposited data

Results flagged for a closer look

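NARR was the only gene at least 2-fold apart in opposite directions in the pairs without and with GSK458. Others, such as TXNIP and CXCL5, differed in sign by less. NARR was at 4.36 FPKM in the control, listed at 0 with As2O3 and with GSK458, and at 2.89 FPKM with both drugs. Its difference was −2.42 for As2O3 minus control and 1.96 for both drugs minus GSK458, on the log2(FPKM + 1) scale. Each value rests on 1 library, and the difference between the pairs was not tested. NARR overlaps RAB34, so reads could be assigned to either gene and its values are uncertain.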

How the results depend on the processing

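The counts of 2-fold genes, 237 higher and 158 lower with As2O3, became 361 and 334 with a pseudocount of 0.1 FPKM and 123 and 39 with one of 5 FPKM. A minimum mean of 5 FPKM left 82 lower genes, and rescaling each library to an equal FPKM sum of 1000000 gave 277 lower genes. A 1.5-fold threshold gave 892 higher and 775 lower genes and a 3-fold threshold 65 and 24. The other counts, under no filter, a filter on the control and As2O3 libraries alone, median-of-ratios or upper-quartile scaling, small RNAs kept and rescaling to the mean sum (197 and 206, added after the data were seen), were within 1.5 times of those reported. Of the 133 genes named by rule that were at least 2-fold apart, 93 stayed so under each of the 9 alternatives run gene by gene (pseudocounts, filters and scalings) that gave a value and 40 fell under it in at least 1; 0 reversed. Medians of 9 of 50 lists changed sign under at least 1 alternative, all of a size up to 0.0756. No paired analysis was possible because each group has 1 library, and no library could be left out. Absolute depth is unknown, so counting error could not be given.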

Other observations

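Polyamine genes held a single large difference. SAT1, which acetylates spermidine and spermine for export, stood at 134 FPKM in the control, 905 FPKM with As2O3, 319 FPKM with GSK458 and 485 FPKM with both drugs, differing by 2.74 in the first pair and 0.60 in the second. The synthesis genes ODC1 and AMD1 differed by −0.72 and −0.55 with As2O3 alone, and 9 of 14 genes of the pathway were higher, 1 of them at least 2-fold. Clock genes were higher in 11 of 15 cases with a median of 0.45. PER1, a repressor of the clock, stood at 7.16 and 25.8 FPKM without and with As2O3, the nuclear receptor NR1D1 at 2.57 and 7.89 FPKM, and BHLHE40 at 20.4, 42.4, 9.34 and 20.9 FPKM in the order control, As2O3, GSK458, both. BHLHE40 was higher in both pairs (1.02 and 1.08), while the output factor HLF differed by −0.82. Both lists were drawn up after these values were seen.

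Gene families were also grouped by the start of their symbols. Of 12 SRSF genes 3 were higher, with a median of −0.48 (−0.01 in the second pair). Of 11 HOXC genes 1 was higher, with a median of −0.46 (−0.18). Of 17 symbols that start with COL, nearly all collagens, 6 were higher, with a median of −0.36 (−0.42). None of these was 2-fold apart. On the other side 11 of 13 TNFRSF genes were higher, with a median of 0.55 (0.10) and TNFRSF6B at least 2-fold higher. The 404 ZNF genes had a median of −0.01, with 0 at least 2-fold higher and 4 lower. These families were picked after their values were seen.

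Neighbouring genes on the RefSeq map were both at least 2-fold higher in 10 of 12010 pairs and both lower in 7. Taken singly, such calls made up 1.94% (higher) and 1.3% (lower) of the genes compared. The number of pairs to be met by chance was not worked out, so these counts do not show clustering. The pairs included AKR1C1 with AKR1C2, ICAM1 with ICAM5, FGB with FGA, and the histone run HIST1H2AC, HIST1H2BD and HIST1H2AE on chromosome 6 near HFE. The pairs are not independent, since the histone run and the near-identical AKR1C genes each gave more than 1. SLCO4A1 and CTDSP1 were paired with antisense genes, whose values are uncertain. Long noncoding genes made up 459 of the 12040 compared genes found in RefSeq, with 10 at least 2-fold higher and 19 lower, beside 223 and 133 of 11394 protein-coding genes. Where the mean was 100 FPKM or more, 3.77% were at least 2-fold higher and 0.27% lower, and between 2 and 5 FPKM 1.86% and 2.60%.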
